A study of Mus musculus with 23 samples.

Results

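The comparison set whole jejunum on challenge day 3 against whole jejunum of immunized mice that had not been challenged, with both genotypes pooled and genotype kept as a covariate. It used 8 of the 23 RNA sequencing libraries of the series, 4 per state, chosen by their labelled state. Each state held 2 Cpa3+/+ (wild type) and 2 Cpa3Cre/+ libraries. Both Cpa3+/+ libraries of each state came from females, and each Cpa3Cre/+ pair held 1 female and 1 male. In Cpa3Cre/+ mice the Cre recombinase gene sits in 1 copy of Cpa3, the carboxypeptidase A3 gene, and the labels call these mice mast cell-deficient. The mice behind all 8 libraries had received 25 µg ovalbumin with 2 mg alum on days 0 and 14. For the challenge, mice were offered plain water beside a solution of 20% egg white and 8% sugar over days 20 to 22. Neither the amount drunk nor the age of the mice is given in the labels. They also do not say whether replicate libraries are separate animals, so p-values cover only library-to-library spread, which may be technical.

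Intestinal mast cells bind IgE through the high-affinity receptor and release stored mediators, among them chymases and carboxypeptidase A3, when allergen cross-links that IgE. Egg white contains ovalbumin, the immunizing protein. In the gut, type 2 immune responses are known for mast cell expansion in the mucosa and for a change of epithelial gene programs driven by interleukin-4 and interleukin-13. The comparison asked which transcripts differed on day 3 in the same direction in both genotypes.

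The test over all genes gave no call. With the spread estimated over all 23 libraries in edgeR, 0 of 17236 genes passed an adjusted p of 0.05 in either direction (percent called 0 higher and 0 lower), and the smallest adjusted p was 0.252. At an unadjusted p under 0.05 there were 1652 genes (9.58%). Within Cpa3+/+ and within Cpa3Cre/+ alone edgeR also called 0 genes, with 849 (4.93%) and 743 (4.31%) at an unadjusted p under 0.05. For the difference of the response between genotypes edgeR called 0 genes, with 244 (1.42%) at an unadjusted p under 0.05. A miss of the threshold does not show that the genotypes responded alike. DESeq2 on the same 23 libraries called 18 genes, 7 higher (0.044% of those tested) and 11 lower (0.0692%). The 7 were Mcpt1, Mcpt2, Mcpt4, Nmu, Doc2g, St3gal4 and Arhgef39, and the 11 were Hipk2, Srcap, Arid1b, Ptprj, Ptprn2, B3galt5, Ikzf3, Ighg2b, Cr2 and the immunoglobulin heavy chain segments Ighv8-8 and Ighv8-11.

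A fit of the 8 compared libraries alone, one of the alternatives to that test, called 755 of 16189 genes, 193 higher (1.19%) and 562 lower (3.47%). Its biological coefficient of variation was 18.3%, against 28.6% over all 23 libraries, and it had 4 residual degrees of freedom against 12. The count of 755 changed strongly when a library was left out, which leaves a single library in a group of genotype and state. It was 0 without Cpa3+/+ day 3 replicate 1, 13 without Cpa3+/+ day 3 replicate 2, and 37 when Cpa3+/+ immunized replicate 1 was left out, or 36 for replicate 2. It was 44 without Cpa3Cre/+ immunized replicate 2 and 44 without Cpa3Cre/+ day 3 replicate 1, but 1476 without Cpa3Cre/+ immunized replicate 1 and 1452 without Cpa3Cre/+ day 3 replicate 2. These fits are not separate checks of single libraries. When either male Cpa3Cre/+ library is left out, the sex term fits the other male exactly, so both fits rest on the female libraries. When either female Cpa3Cre/+ library is left out, the genotype term fits the other female exactly, so both fits rest on the same remaining libraries. All 755 had the same sign in both genotypes, a description only, since the same libraries chose them. Other settings over all 23 libraries gave calls as well, 284 in edgeR without a filter on low counts and 1042 with limma quality weights, of which 539 were among the 755. In what follows, "passed with 8 libraries" means an adjusted p under 0.05 in the fit of the 8 libraries, and an adjusted p with 23 libraries is that of the designed edgeR test, which none passed. The chart of calls by fit shows these counts side by side.

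**Figure D1:**
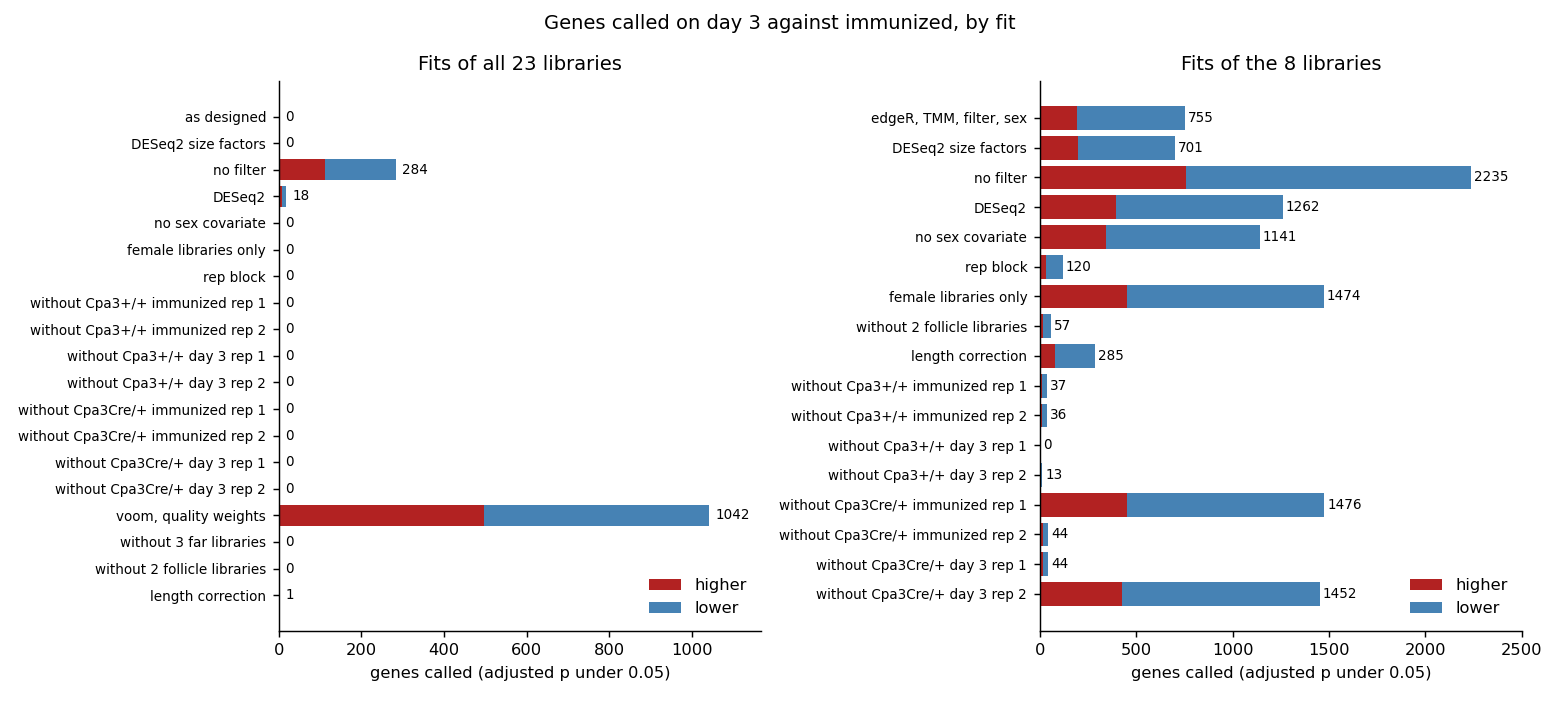
Number of genes called on day 3 against immunized (adjusted p under 0.05, x axis) in each fit of all 23 libraries (left) and of the 8 compared libraries (right), split into higher (red) and lower (blue), with the total printed beside each bar. The designed fit called 0 genes, and the fit of the 8 libraries called between 0 and 2235 depending on the setting.

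The 8 libraries held 11.91 to 19.34 M read counts. The enterocyte transcript Apoa4 and the proximal factor Gata4 were abundant in all 8. The defining ileal Fabp6, pancreatic Cpa1, Pnlip and Cela2a and fat cell Adipoq and Plin1 did not pass the filter on low counts, but 10 of 11 ileal, 3 of 17 pancreatic and 6 of 11 fat cell list members did. The summed fat cell list was 185 to 296 CPM in immunized and 193 to 263 CPM in day 3 libraries, and the pancreatic list 216 to 1000 CPM and 245 to 633 CPM. Of the 6 fat cell genes, Fabp4 and Plin4 had all 4 day 3 libraries above the immunized ones, against 8.3% of all genes tested. Neither passed in either edgeR fit. B cell follicle transcripts were high in only 2 of the 8 libraries. Cr2, complement receptor 2 of follicular B and dendritic cells, stood at 19.8 CPM (counts scaled to a common library total) in Cpa3+/+ immunized replicate 1 and at 14.4 CPM in Cpa3Cre/+ immunized replicate 2. It was at most 0.582 CPM in the other 6. Folds of lymphocyte transcripts are therefore also given without those 2 libraries where computed. Leaving those 2 out keeps a single immunized library per genotype. A call lost in that setting cannot be told apart from the loss of libraries.

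Mast cell protease transcripts had the highest median among the lists examined when all libraries were used. Mcpt1 encodes mouse mast cell protease 1, a chymase of mucosal mast cells (ENSMUSG00000022227, chromosome 14, 56017971 to 56020384, GRCm38). In immunized jejunum it stood at 26.5 and 53.7 CPM in Cpa3+/+ and at 4.37 and 5.19 CPM in Cpa3Cre/+ libraries. On day 3 it stood at 319 and 327 CPM in Cpa3+/+ and at 31.4 and 41.1 CPM in Cpa3Cre/+. Both day 3 libraries lay above both immunized libraries in each genotype, but the Cpa3Cre/+ day 3 libraries lay inside the range of the Cpa3+/+ immunized ones. The log2 fold change was 2.94 ± 0.54 (SE; edgeR adjusted p = 0.252 with 23 libraries, 0.0061 with 8, DESeq2 adjusted p = 7.93e-05). It was 3.01 ± 0.75 within Cpa3+/+ and 2.88 ± 0.78 within Cpa3Cre/+, and the difference between these steps was not called.

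Mcpt2, the neighbouring chymase gene (ENSMUSG00000022226, chromosome 14, 56042041 to 56044642), followed the same pattern. Its immunized values were 10.5 and 20 CPM in Cpa3+/+ and 1.09 and 1.76 CPM in Cpa3Cre/+. Its day 3 values were 126 and 114 CPM in Cpa3+/+ and 9.64 and 16 CPM in Cpa3Cre/+. The log2 fold change was 3.04 ± 0.58 (edgeR adjusted p = 0.252 with 23 libraries and 0.00918 with 8). Cpa3, the gene altered in Cpa3Cre/+ mice, is shown with that in mind. It stood at 2.42 and 4.05 CPM in immunized Cpa3+/+ and at 17.2 and 13.1 CPM on day 3. In Cpa3Cre/+ it stood at 0.291 and 0.153 CPM, against 0.971 and 0.697 CPM on day 3. The log2 fold change of Cpa3 was 2.03 ± 0.62 (edgeR adjusted p = 0.483 with 23 libraries and 0.0168 with 8).

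Of the 8 mast cell protease genes that passed the filter, of 9 listed, 0 were called with 23 libraries. With 8 libraries 6 passed, against 1.19% of all genes called higher: Mcpt1, Mcpt2, Mcpt4, Mcpt9, Cma1 and Cpa3. All 8 had a positive log2 fold change, with a median of 2.60 against 0.04 over all genes tested. In each genotype both day 3 libraries lay above both immunized libraries for all 8, against 12% of all genes tested. Near-identical chymase genes can share reads, so the 8 are not independent observations. Mcpt4, a chymase of connective tissue mast cells, stood at 1.04 and 1.78 CPM in immunized Cpa3+/+ and at 11.1 and 10.2 CPM on day 3. In Cpa3Cre/+ it stood at 0 and 0.153 CPM, against 0.763 and 0.747 CPM on day 3, so few counts lie behind the fold in that genotype. Corrected for a trend with gene length, 5 of the 8 still passed with 8 libraries. Without the 2 libraries with follicle transcripts, the log2 fold changes of the 8 with 23 libraries ran from 1.58 for Cpa3 to 4.61 for Mcpt4. Calls are not counted in that setting, since it leaves a single immunized library per genotype.

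Transcripts of other mast cell proteins split. Of 13 that passed the filter, 3 passed with 8 libraries, against 1.19% of all genes called higher. Fcer1a, which encodes the IgE-binding subunit of the high-affinity receptor, stood at 0.76 and 1.78 CPM in immunized Cpa3+/+ and at 5.62 and 4.94 CPM on day 3. In Cpa3Cre/+ it stood at 0 and 0.0764 CPM, against 0.277 and 0.498 CPM on day 3. Ms4a2, the beta chain of that receptor, differed by 2.46 ± 0.84 on the log2 scale (edgeR adjusted p = 0.49 with 23 libraries and 0.03 with 8). Slc18a2, the vesicular monoamine transporter, differed by 1.04 ± 0.46 (edgeR adjusted p = 0.506 and 0.0499). Kit, the stem cell factor receptor that mast cells share with interstitial cells of Cajal, differed by −0.06 ± 0.28 (edgeR adjusted p = 0.961). Gata2, a transcription factor of mast cells and other blood lineages, ranged from 1.15 to 2.84 CPM in the immunized and from 2.34 to 6.66 CPM in the day 3 libraries (log2 fold change 1.27 ± 0.44, edgeR adjusted p = 0.49 and 0.0504). In bulk tissue, more cells of a type and more RNA per cell cannot be told apart.

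**Figure D2:**
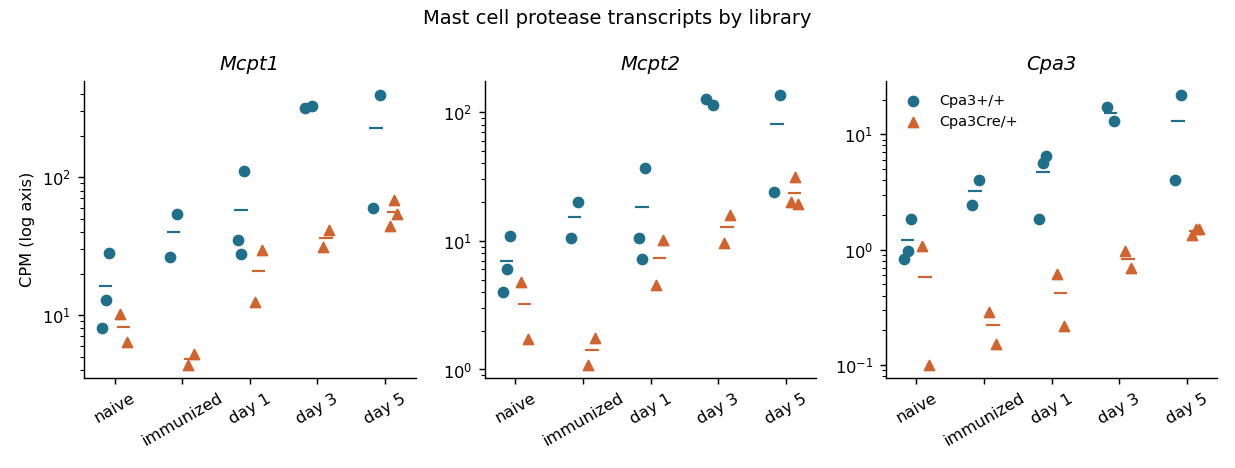
CPM of Mcpt1, Mcpt2 and Cpa3 (log axis) in each library of the 5 states, Cpa3+/+ as circles and Cpa3Cre/+ as triangles, with group means as bars. Day 3 libraries lie above the immunized libraries of their own genotype, and Cpa3Cre/+ libraries lie below Cpa3+/+ libraries in both states.

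The upstream sequence of these genes is shown because they were high together on day 3 and because GATA factors are known regulators of mast cell genes. RefSeq promoter entries (GRCm38.p6) were present for 8 of the 9 mast cell genes that passed with 8 libraries, and Mcpt2 had none. The letters GATAA, searched on both strands, occurred in the 250 bases before the start in 7 of the 8 and in 22.6% of 32851 promoter entries. In the last 100 bases they occurred in 4 of the 8 and in 8.5% of all entries. The genes were chosen because they passed in these data. The Mcpt1 and Mcpt4 sequences are nearly the same around the match, so the entries are not independent. The shares are a description, and enrichment was not tested. A match is a description of the letters, not a binding site. Capitals mark GATAA, or TTATC where the match is on the other strand. Mcpt9 is shown as the entry without a match.
Mcpt1 (chr14:56017714-56017963, plus strand): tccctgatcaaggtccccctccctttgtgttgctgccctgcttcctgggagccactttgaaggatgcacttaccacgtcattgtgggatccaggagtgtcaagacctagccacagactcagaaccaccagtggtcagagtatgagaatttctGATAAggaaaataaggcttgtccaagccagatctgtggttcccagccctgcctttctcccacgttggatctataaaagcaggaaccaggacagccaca
Mcpt4 (chr14:56062311-56062560, minus strand): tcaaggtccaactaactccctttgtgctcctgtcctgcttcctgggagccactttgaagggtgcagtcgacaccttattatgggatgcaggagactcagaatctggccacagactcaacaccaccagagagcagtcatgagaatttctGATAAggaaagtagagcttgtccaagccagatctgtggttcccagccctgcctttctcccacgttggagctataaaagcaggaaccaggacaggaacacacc
Cpa3 (chr3:20242182-20242431, minus strand): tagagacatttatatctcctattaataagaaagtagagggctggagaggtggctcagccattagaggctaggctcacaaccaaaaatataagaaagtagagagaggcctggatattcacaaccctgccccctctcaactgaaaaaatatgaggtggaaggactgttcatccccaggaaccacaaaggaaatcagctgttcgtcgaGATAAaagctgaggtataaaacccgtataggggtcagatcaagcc
Fcer1a (chr1:173227230-173227479, minus strand): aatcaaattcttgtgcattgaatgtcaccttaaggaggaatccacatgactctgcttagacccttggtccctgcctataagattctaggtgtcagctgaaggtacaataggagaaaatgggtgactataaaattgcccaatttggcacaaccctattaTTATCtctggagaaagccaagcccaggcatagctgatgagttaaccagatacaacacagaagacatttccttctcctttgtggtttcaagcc
Mcpt9 (chr14:56030496-56030745, minus strand): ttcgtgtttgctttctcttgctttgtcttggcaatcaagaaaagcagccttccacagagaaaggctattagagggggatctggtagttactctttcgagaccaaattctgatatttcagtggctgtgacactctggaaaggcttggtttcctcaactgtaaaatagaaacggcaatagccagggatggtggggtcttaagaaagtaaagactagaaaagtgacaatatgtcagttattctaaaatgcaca

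Of 13 epithelial genes of the type 2 response that passed the filter, 9 had a positive and 4 a negative log2 fold change. With 8 libraries 1 of the 11 tested passed, against 1.19% of all genes called higher. Gsdmc2, Gsdmc3 and Gsdmc4 encode gasdermin C proteins, pore-forming proteins of the intestinal epithelium. Gsdmc3 stood at 0.621, 0.324, 0 and 0.764 CPM in immunized and at 1.6, 9.8, 6.8 and 4.43 CPM in day 3 libraries (Cpa3+/+ first), a log2 difference of 3.71 ± 1.63 (edgeR adjusted p = 0.504 with 23 libraries and 0.0468 with 8). The log2 difference of Gsdmc3 with 23 libraries ran from 2.77 without Cpa3+/+ day 3 replicate 2 to 6.72 without Cpa3Cre/+ immunized replicate 2, and it was 7.01 without the 2 libraries with follicle transcripts. Gsdmc3 passed in 0 of the 8 fits of the 8 libraries that left out 1 library. Gsdmc2 ranged from 0.291 to 5.59 CPM in immunized and from 11.7 to 53.7 CPM in day 3 libraries. The groups did not overlap for Gsdmc2, Gsdmc3 or Gsdmc4. Near-identical copies of these genes can share reads, so the 3 are not independent observations.

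Pla2g4c, a cytosolic phospholipase A2, stood at 2.56, 3.49, 1.09 and 18 CPM in immunized and at 24.9, 69.1, 36.7 and 24.2 CPM in day 3 libraries. The high immunized value belonged to Cpa3Cre/+ replicate 2, which was also high for Sprr2a3, a small proline-rich protein (40.5 CPM against 2.62 to 4.38 CPM in the other 3). Retnlb, the goblet cell protein RELMβ, and Sprr2a1 had 0 counts in all 4 immunized libraries and 8 and 10 counts on day 3, at least 2.38-fold and 2.98-fold higher taking 3 counts per group as the floor. These bounds cover counting error only. On the lower side, Fut2, a fucosyltransferase of the epithelium, had a log2 fold change of −1.48 and Fcgbp, a mucus protein, one of −0.49, neither past the test. Of the 13 genes, 6 had all 4 day 3 libraries above all 4 immunized ones, against 8.3% of all genes tested. The 6 were Pla2g4c, Gsdmc2, Gsdmc3, Gsdmc4, Retnlb and Sprr2a1. The gasdermin genes among them can share reads, and Retnlb and Sprr2a1 had 0 immunized counts, so the 6 are not independent observations of equal weight. The list median was 2.47, or 1.25 with Retnlb and Sprr2a1 at their bounds. Without the 2 libraries with follicle transcripts it was 3.98, which was the value of Retnlb itself, a gene with 0 immunized counts. The median with bounds was not computed for that setting, so 3.98 does not measure a larger response. Of the 11 tested with 8 libraries, Gsdmc3 was the single gene that passed, and it no longer passed with the length correction (adjusted p = 0.0692, edgeR). Il4, Il5, Il9, Il13 and Il25 did not pass the filter, and of the type 2 cytokine and receptor genes that did, none passed with 8 libraries.

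**Figure D3:**
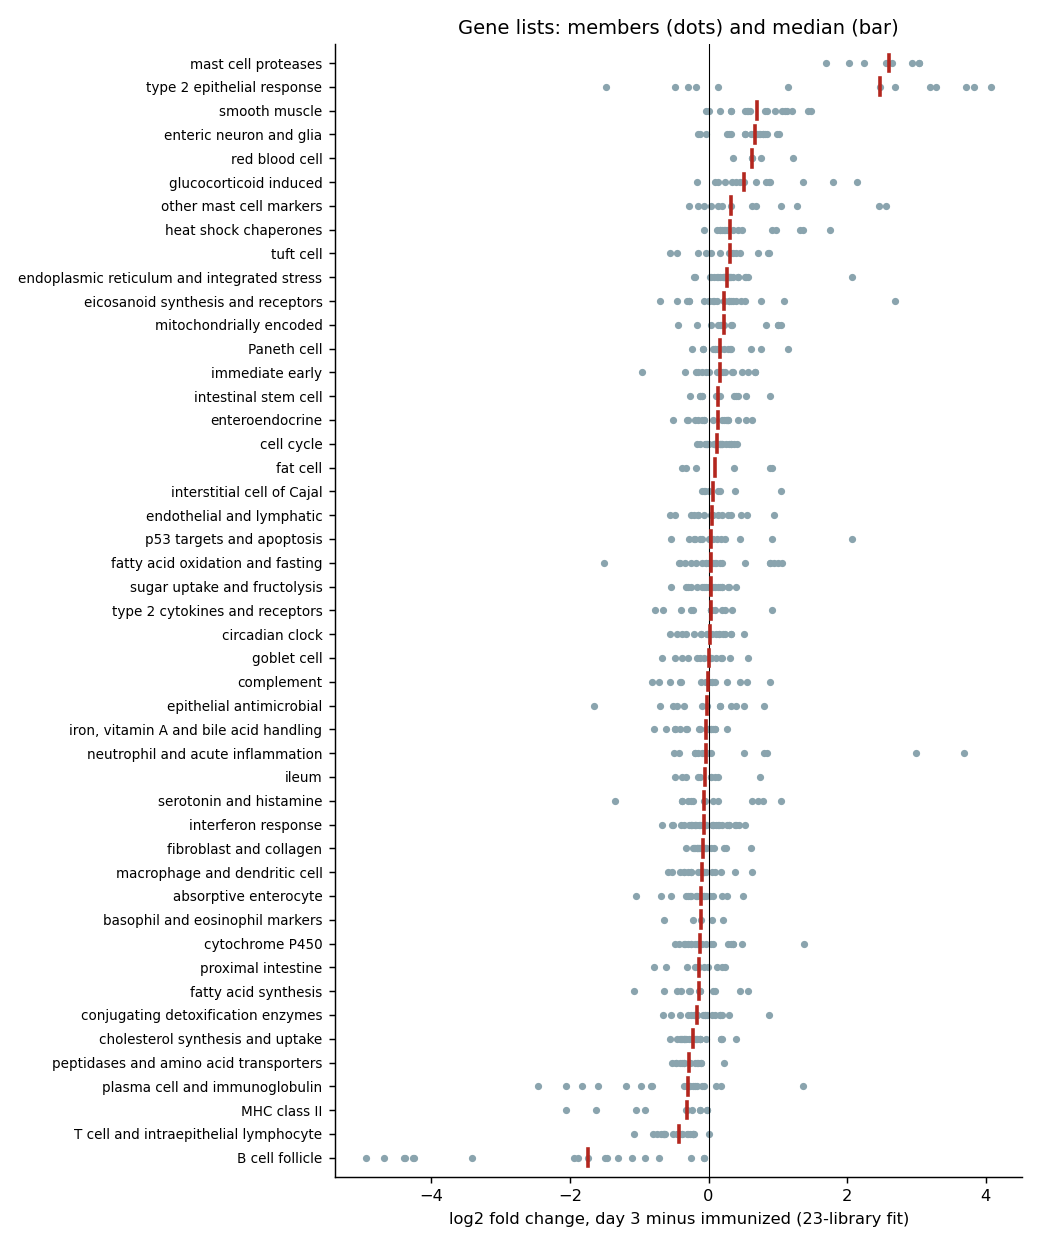
Log2 fold change on day 3 against immunized (23-library fit) for each list member that passed the filter (dots) and the list median (red bar), lists ordered by median, for lists with at least 5 such members. Mast cell proteases (median 2.60) and the type 2 epithelial response (2.47) lie farthest to the right and B cell follicle genes (−1.74) farthest to the left.

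Of 20 enteric neuron and glia genes, 17 had a positive and 3 a negative log2 fold change. With 8 libraries 3 of the 19 tested passed, against 1.19% of all genes called higher. Uchl1, a ubiquitin hydrolase of neurons, stood at 6.28, 4.62, 6.84 and 4.51 CPM in immunized and at 12.7, 9.22, 12.8 and 11.4 CPM in day 3 libraries. Its log2 fold change was 1.02 ± 0.43 (edgeR adjusted p = 0.501 with 23 libraries and 0.0311 with 8). Tubb3, neuronal tubulin, and Prph, the neurofilament protein peripherin, passed with 8 libraries as well. Of the 20 genes, 8 had all 4 day 3 libraries above the immunized ones, against 8.3% of all genes tested, and the median was 0.67. With the length correction none of the 20 passed. Without the 2 libraries with follicle transcripts, Uchl1, Tubb3 and Prph had log2 fold changes of 0.86, 0.67 and 0.68 with 23 libraries. That setting leaves a single immunized library per genotype.

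Nmu encodes neuromedin U, a neuropeptide of enteric neurons that acts on type 2 innate lymphoid cells. It stood at 1.66, 0.973, 1.6 and 1.07 CPM in immunized and at 4.79, 4.65, 4.72 and 5.18 CPM in day 3 libraries. The groups lay far apart with little spread, and the log2 fold change was 1.85 ± 0.46 (edgeR adjusted p = 0.483 with 23 libraries and 0.0147 with 8, DESeq2 adjusted p = 0.0428). Naive libraries ranged from 1.28 to 5.75 CPM, so the day 3 level was within the naive range.

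Of 18 smooth muscle genes, 17 had a positive and 1 a negative log2 fold change, none passed in either edgeR fit, 9 had all 4 day 3 libraries above the immunized ones, against 8.3% of all genes tested, and the median was 0.70. Des, the muscle intermediate filament desmin, stood at 187, 163, 153 and 87.6 CPM in immunized and at 279, 418, 752 and 342 CPM in day 3 libraries. Actg2, enteric smooth muscle actin, was highest in Cpa3Cre/+ day 3 replicate 1 at 629 CPM and lowest in Cpa3Cre/+ immunized replicate 2 at 53.6 CPM. The summed level of the 18 genes was 2590 to 4020 CPM in immunized and 4320 to 7800 CPM in day 3 libraries. The summed level of the neuron and glia genes was 64.3 to 96.2 CPM and 110 to 145 CPM. The share of muscle wall in the tissue was not recorded in the labels, and its part in these results was not tested.

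Of 16 heat shock chaperone genes, 7 had all 4 day 3 libraries above the immunized ones, against 8.3% of all genes tested, and 3 passed with 8 libraries, against 1.19%. The median was 0.31. Hspb1, a small heat shock protein that muscle also expresses, stood at 7.46, 6.49, 4.66 and 3.28 CPM in immunized and at 11.9, 15.8, 15.1 and 11.3 CPM in day 3 libraries (log2 fold change 1.32 ± 0.45, edgeR adjusted p = 0.49 and 0.0271). Hspe1, the mitochondrial chaperonin partner, and Hspa1a, an inducible HSP70, were the other two. Of 13 mitochondrially encoded genes, mt-Co2, mt-Co3, mt-Atp6 and mt-Nd3 passed with 8 libraries, against 1.19% of all genes called higher. Near-identical nuclear copies of mitochondrial genes can share reads, so the CPM of these genes may cover only part of their reads. mt-Co2, a cytochrome c oxidase subunit, stood at 87.6, 101, 105 and 63.8 CPM in immunized and at 247, 205, 110 and 193 CPM in day 3 libraries. Of the 13, 1 had all 4 day 3 libraries above the immunized ones, mt-Co2, near the share of 8.3% of all genes tested. The median of the 13 was 0.22, and −0.03 with the length correction. The share of all reads from mitochondrial genes was 4.62% to 6.73% in immunized and 5.39% to 7.63% in day 3 libraries, so the groups overlapped.

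Among single genes with the smallest p and a higher level, Doc2g, a C2 domain protein, stood at 0.967, 1.05, 1.6 and 1.15 CPM in immunized and at 4.17, 3.34, 4.58 and 3.49 CPM in day 3 libraries (log2 fold change 1.70 ± 0.30, edgeR adjusted p = 0.252 and 0.0225, DESeq2 adjusted p = 5.33e-04). Arhgef39, a guanine nucleotide exchange factor, ran from 18.3 to 20.5 CPM and from 28.7 to 32 CPM. St3gal4, a sialyltransferase, ran from 4.14 to 12.8 CPM and from 15.2 to 30.1 CPM. Haus5, Snora73b, Snhg12, Mettl17, Scgb3a1, Tra2a and Dut completed that group with log2 fold changes of 0.56 to 1.48. Ccl8, a chemokine that attracts monocytes and other leukocytes, passed with 8 libraries at 0.218 to 0.621 CPM in immunized and 1.2 to 4.79 CPM in day 3 libraries. Ascl2, a transcription factor of intestinal stem cells, stood at 3.8, 4.3, 4.59 and 5.04 CPM, against 10.3, 7.41, 7.35 and 7.77 CPM (edgeR adjusted p = 0.548 and 0.0411). Ascl2 was the single gene of 14 stem cell genes that passed with 8 libraries, against 1.19% of all genes called higher. Of the 14, 5 had all 4 day 3 libraries above the immunized ones, against 8.3% of all genes tested, and 5 had a negative log2 fold change. Of 16 endothelial and lymphatic genes, Egfl7 and Esam passed higher with 8 libraries, against 1.19% of all genes. In that list 9 had a positive and 7 a negative log2 fold change, and the median was 0.05. Of 15 p53 target genes, Phlda3 passed higher and Trp53inp1 lower, against 1.19% and 3.47% of all genes, and the median was 0.03.

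On the lower side, Hipk2, a nuclear kinase that acts on p53 and other transcription factors (ENSMUSG00000061436, chromosome 6, 38694390 to 38876165), stood at 70.9 and 71 CPM in immunized Cpa3+/+ and at 38.8 and 47.4 CPM in immunized Cpa3Cre/+ libraries. On day 3 it stood at 16.3, 14.9, 12.1 and 16.8 CPM. The 4 day 3 values lay close together and far below all 4 immunized values. The log2 fold change was −1.87 ± 0.44 (edgeR adjusted p = 0.483 with 23 libraries and 0.0061 with 8, DESeq2 adjusted p = 0.0233).

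Ppara encodes PPARα, a nuclear receptor that drives fatty acid oxidation. It stood at 32.8, 51.1, 55.3 and 30.2 CPM in immunized and at 14.4, 13.9, 14.9 and 16.3 CPM in day 3 libraries (log2 fold change −1.51 ± 0.45, edgeR adjusted p = 0.483 and 0.0114). The other 21 genes of fatty acid oxidation and fasting that passed the filter did not pass with 8 libraries, and the list median was 0.03. Hnf4g, an enterocyte nuclear receptor of the HNF4 family, stood at 483, 468, 383 and 365 CPM, against 196, 217, 173 and 214 CPM on day 3 (log2 fold change −1.08 ± 0.33, edgeR adjusted p = 0.483 and 0.0114). Hnf4g, Clcn5 and Pdpr are named after their values were seen. They were among the genes that passed most often in the fits that left out a library. Others among these genes were Mcpt1, Mcpt2, mt-Co2, mt-Co3, Hipk2, Ptprn2 and Igkv4-62. Those fits leave a single library in a group and some of them repeat each other, so passing often is no separate support. Clcn5, an endosomal chloride transporter, ran from 57.5 to 62.4 CPM in immunized and from 34.5 to 40.4 CPM in day 3 libraries. Pdpr, a regulatory subunit of pyruvate dehydrogenase phosphatase, ran from 17.3 to 21.1 CPM and from 5.97 to 9.06 CPM.

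**Figure D4:**
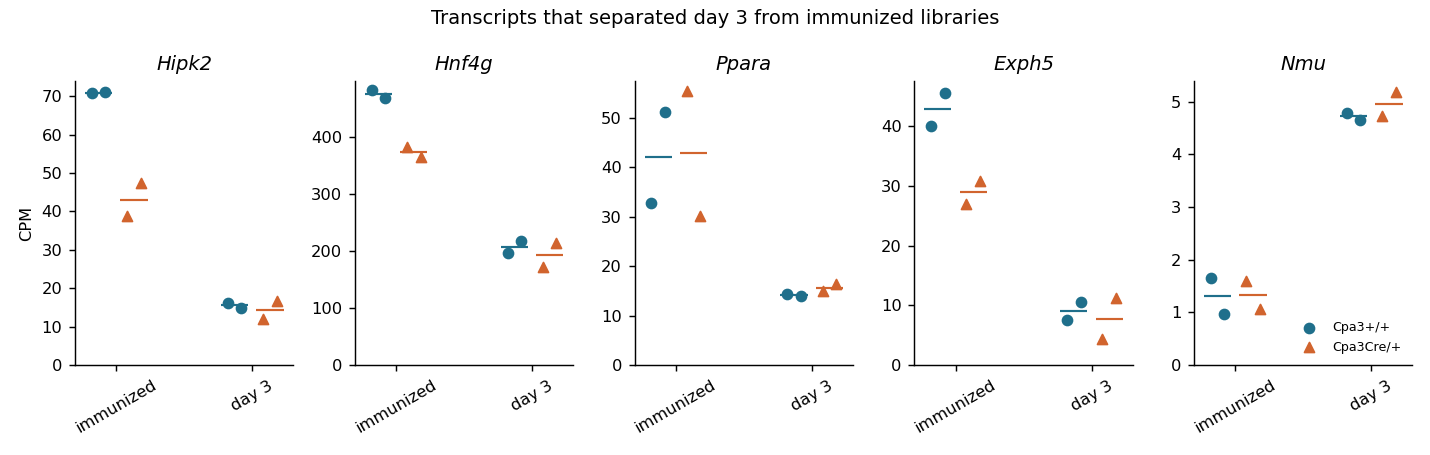
CPM of Hipk2, Hnf4g, Ppara, Exph5 and Nmu in the 4 immunized and 4 day 3 libraries (circles Cpa3+/+, triangles Cpa3Cre/+, bars the group means, axes from 0). No day 3 library overlaps an immunized library in these 5 genes.

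Exph5, a Rab27 effector in vesicle transport, stood at 40.1, 45.5, 26.9 and 30.9 CPM in immunized and at 7.57, 10.6, 4.37 and 11.2 CPM in day 3 libraries, a log2 difference of −2.08 ± 0.59 (edgeR adjusted p = 0.483 and 0.0114). Lcor, a corepressor of nuclear receptors, stood at 29.3, 35.5, 15.8 and 18.9 CPM, against 7.01, 6.39, 5.13 and 7.97 CPM. Spen, a transcriptional corepressor, ran from 59.3 to 82.1 CPM and from 27.4 to 43.7 CPM. Srcap, a chromatin remodelling ATPase, Arid1b, a subunit of the SWI/SNF remodelling complex, and Ptprj, a receptor tyrosine phosphatase, had log2 fold changes of −1.77, −0.55 and −0.82 and were lower in all 4 day 3 libraries. Atp7a, the copper exporter of enterocytes, ran from 11.2 to 22.1 CPM and from 2.15 to 7.5 CPM. Uprt, Zyg11a, Klhl11, Gpc6, Mid1, Prdm2, Cmip and Zswim6 passed with 8 libraries with log2 fold changes in the 23-library fit of −0.65 to −1.66. B3galt5 and Rab43 were among the smallest p values with 23 libraries but did not pass with 8 (edgeR adjusted p = 0.0602 and 0.124).

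Of 18 sugar uptake and fructolysis genes, 0 passed in either edgeR fit, 10 had a positive and 8 a negative log2 fold change, and the median was 0.03. Of 16 peptidase and amino acid transporter genes, 7 had all 4 day 3 libraries below all 4 immunized ones, against 9.08% of all genes tested, and the median was −0.28. Dpp4, a brush border dipeptidyl peptidase, stood at 792, 979, 821 and 668 CPM in immunized and at 562, 576, 506 and 609 CPM in day 3 libraries (log2 fold change −0.53 ± 0.35, edgeR adjusted p = 0.618 and 0.0482). Mep1a, a subunit of the protease meprin, had an adjusted p of 0.0499 with 8 libraries in edgeR. Anpep, aminopeptidase N, ran from 8060 to 10100 CPM and from 6050 to 7680 CPM, and did not pass in either fit. Of 20 absorptive enterocyte genes, 3 lay below in all 4 libraries, against 9.08% of all genes tested, and the median was −0.11. Cubn alone of the 20 passed with 8 libraries, against 3.47% of all genes called lower, so both counts are near those shares. Of 24 cholesterol genes, 8 lay below in all 4 libraries, against the same 9.08% of all genes. Cubn, the cobalamin and intrinsic factor receptor cubilin, ran from 267 to 504 CPM and from 99.8 to 220 CPM (log2 fold change −1.05 ± 0.51). Isx, a repressor of vitamin A uptake, Ugt1a1, which conjugates bilirubin, the clock gene Clock and the complement gene Cfb also passed lower with 8 libraries. With the length correction Dpp4, Mep1a and Cubn no longer passed (edgeR adjusted p = 0.0839, 0.0519 and 0.0503).

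The 19 B cell follicle genes had a median of −1.74 with all libraries and of −0.06 without those 2. Ms4a1, the B cell antigen CD20, stood at 16.4, 0.649, 0.874 and 11.8 CPM in immunized and at 0.208 to 0.363 CPM in day 3 libraries. Ikzf3, a lymphocyte transcription factor, Btla, an inhibitory lymphocyte receptor, and Tlr9, a sensor of DNA, had log2 fold changes of −1.43, −1.49 and −1.68 with 23 libraries, and of −0.64, −0.78 and −1.28 without those 2 libraries. Ms4a1 then had one of −1.07. Ccr9, the gut homing chemokine receptor, was the single T cell gene of 22 tested that passed with 8 libraries, against 3.47% of all genes called lower. It ran from 5.27 to 7.72 CPM and from 3.12 to 4.83 CPM, with a log2 fold change of −0.66, and of −0.83 without the 2 libraries. Leaving those 2 libraries out keeps a single immunized library per genotype, so calls of Ms4a1, Ikzf3, Btla, Tlr9 and Ccr9 are not read there. The median of the T cell list was −0.43, and 0.16 without the 2 follicle libraries, so its direction turned.

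Of 21 plasma cell and immunoglobulin genes, 18 had a negative and 3 a positive log2 fold change, and 0 passed in either edgeR fit. In all 4 libraries 4 lay below, against 9.08% of all genes tested. The median was −0.29. Ighg2b, the IgG2b constant region, stood at 32.8, 7.05, 11.9 and 20.2 CPM in immunized and at 3.33, 4.65, 5.76 and 3.44 CPM in day 3 libraries (log2 fold change −2.06 ± 0.52, edgeR adjusted p = 0.483 and 0.0634, DESeq2 adjusted p = 0.0421). Without the 2 follicle libraries it was −1.19. Ighg1, the IgG1 constant region, stood at 24.4, 6.16, 4.88 and 9.7 CPM, against 183, 6.03, 5.76 and 10.2 CPM, so 1 day 3 library held the high value. Its log2 fold change was 1.36 ± 0.76 with all libraries and −0.65 without Cpa3+/+ day 3 replicate 1. Of 172 immunoglobulin variable segments tested, 15 (8.72%) passed lower and 0 higher with 8 libraries, against 3.47% of all genes called lower. In all 4 libraries 17 (9.88%) lay below, near the 9.08% of all genes, and the median was −0.63. The count without the 2 follicle libraries was not computed for the segments.

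Gene length moved with the direction of the difference. With protein-coding genes in 10 equal classes of summed exon length, the median log2 fold change in the fit of the 8 libraries ran from 0.204 in the shortest class to −0.259 in the longest. The shortest class held 35 genes called higher and 6 lower, and the longest 1 higher and 180 lower. The median summed exon length was 2393 bases for genes called higher, 8090.5 for those called lower and 3871 for all genes. The share of G and C bases in the longest transcript also differed. Its median was 51.7% for genes called higher, 46.1% for those called lower and 49.6% for all genes. No correction for that share was run. Genes over 8 kb took 13.4% to 15.7% of reads in immunized and 11.5% to 13.6% in day 3 libraries. With a length correction, 285 genes were called with 8 libraries, 77 higher and 208 lower, and 246 of them were among the 755. Mcpt1, Mcpt2, Nmu, Doc2g, Hipk2, Hnf4g, Ppara, Exph5, Lcor and Spen kept their calls, while Uchl1, Hspb1 and Dpp4 lost theirs. RNA integrity values were not among the sources used here, and the part of RNA quality was not tested.

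**Figure D5:**
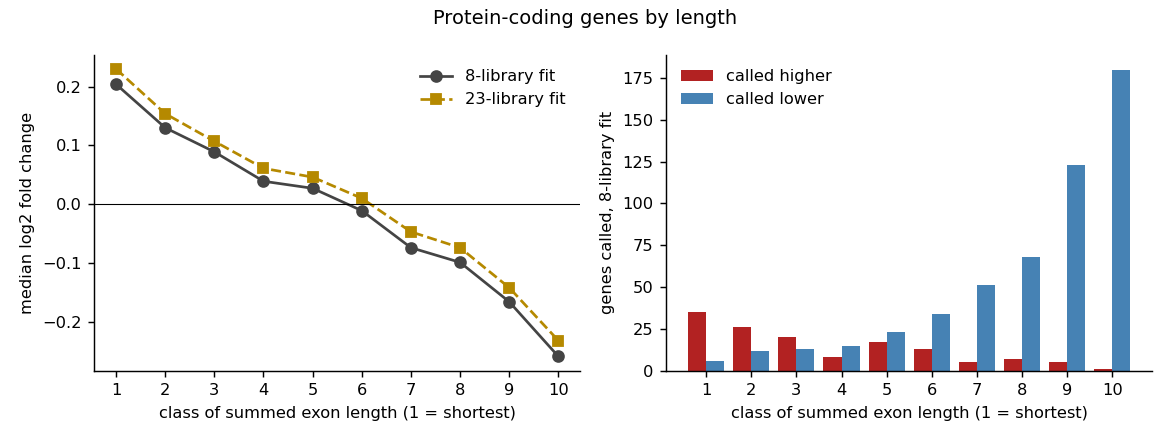
Left, median log2 fold change on day 3 against immunized in 10 equal classes of summed exon length of protein-coding genes (1 the shortest), for both fits. Right, number of genes called higher (red) and lower (blue) in each class in the fit of the 8 libraries: 180 of the longest class were called lower and 1 higher.

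Levels in the other states are given for the same genes. These states share the immunized libraries as their reference, so the values are given as levels with no test. Mcpt1 ranged from 6.34 to 28 CPM in naive, 12.4 to 111 CPM in day 1 and 44.6 to 397 CPM in day 5 libraries. Hipk2 ranged from 21.5 to 71.2 CPM in naive, 13 to 65.5 CPM in day 1 and 9.22 to 40.2 CPM in day 5 libraries, and Ppara from 18.5 to 55.1, 9.33 to 89.7 and 8.22 to 34.4 CPM. For the genes called higher with 8 libraries, the median log2 ratio to immunized was 0.47 in naive, 0.34 on day 1, 0.81 on day 3 and 0.54 on day 5. For those called lower it was −0.13, −0.26, −0.56 and −0.26. These sets were chosen on day 3 against the same immunized libraries, so the medians are a description and nothing is read from them.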

How the data were processed

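Total RNA of whole jejunum, with fat and Peyer's patches removed, was made into stranded TruSeq libraries, per the labels' protocols. The authors deposited raw read counts per Ensembl gene for 55487 genes in 23 libraries, made with STAR and featureCounts (Subread 1.5.1) on mm10/GRCm38, per the submitters' processing notes. The strand setting was not given in the sources used here, so reads of overlapping antisense genes cannot be told apart. Apart from strand, near-identical copies such as the chymase genes can share reads. Total counts ran from 5.48 to 19.34 M.

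Identifiers were matched to GENCODE vM21 (55227 genes; the 260 unmatched held 0.00137% of reads). Counts were filtered with filterByExpr, scaled with TMM and tested in edgeR 4.0.16 (R 4.3.3, robust quasi-likelihood, two-sided, Benjamini-Hochberg over all genes) with 10 group means and sex over all 23 libraries; the contrast was the mean of the day 3 minus immunized differences of the 2 genotypes. CPM uses the TMM factors. Each SE was derived as |log2 fold change| divided by √F. Alternatives were the 8 libraries alone, DESeq2 1.42.0, its size factors, no filter and no sex term. Further ones were females only, a replicate block, and each of the 8 compared libraries left out. Added after seeing the data were limma 3.58.1 voom with quality weights, a length correction and leaving out libraries that stood apart. All variations of the fit of the 8 libraries were also added then. Replicate pairs differed by more than counting noise (chi-square per degree of freedom 14.5 to 35.3).

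The comparison and the gene lists were chosen with earlier results of these data known. Named genes were the 15 with the smallest p per direction with at least 1 CPM (without predicted genes, variable segments, Y-linked genes and Xist), and per list up to 4 that passed or 2 with the smallest p. The same rule applied to the fit of the 8 libraries, the genes named for DESeq2 calls and the gasdermin, Sprr2a, Ighg1, Kit, Gata2 and Anpep values were chosen after seeing the data. Some genes the rule would name are covered by counts only or are not reported here.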

Additional observations from a re-analysis of the deposited data

Results flagged for a closer look

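In the named genes, the 4 libraries of each state were checked for a highest or lowest value whose gap to its neighbour, over the whole range, passed Dixon's critical value at the 95% level. This was so in 12 of 194 sets of 4 values (6.19%). The criterion alone picks about 1 in 20 independent sets, and these sets are neither independent nor chosen at random. In immunized jejunum the high values were Cma2 at 1.38 CPM in Cpa3+/+ replicate 2, and Pla2g4c at 18 CPM, Sprr2a3 at 40.5 CPM and Arhgef39 at 20.5 CPM in Cpa3Cre/+ replicate 2. The low values were mt-Atp6 at 42 CPM in Cpa3Cre/+ replicate 2 and Arid1b at 50.6 CPM in Cpa3Cre/+ replicate 1. On day 3 the high values were Ighg1 at 183 CPM and Ascl2 at 10.3 CPM in Cpa3+/+ replicate 1, Isx at 139 CPM and Clcn5 at 40.4 CPM in Cpa3+/+ replicate 2, and Ccl8 at 4.79 CPM in Cpa3Cre/+ replicate 1. Ms4a1 was low at 0.208 CPM in Cpa3Cre/+ replicate 1.

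The immunoglobulin segment Ighv1-20 and the histone gene Hist1h2al moved in opposite directions in the genotypes: both day 3 libraries lay above both immunized libraries in Cpa3+/+ and below them in Cpa3Cre/+. Ighv1-20 stood at 0.76 and 0 CPM in immunized and 6.46 and 30.1 CPM in day 3 Cpa3+/+ libraries, and at 9.61 and 12.8 CPM and 0.416 and 0.847 CPM in Cpa3Cre/+. The difference of the responses, Cpa3Cre/+ minus Cpa3+/+, was −9.56 for Ighv1-20 and −8.53 for Hist1h2al on the log2 scale, and it did not pass the test (edgeR adjusted p = 1 for both). Without a filter on low counts it passed for both (edgeR adjusted p = 2.34e-26 and 2.90e-09). With limma quality weights it passed for Hist1h2al (adjusted p = 0.0463). Near-identical histone copies and variable segments can share reads.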

How the results depend on the processing

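The designed test of the pooled comparison called 0 genes, and it also called 0 with size factors, without the sex term, in females, without the 3 libraries far out on principal components and without the 2 follicle libraries. It called 284 without a filter (283 of them tested with the filter as well), 18 with DESeq2, 755 with the 8 libraries, 1042 with quality weights (539 of them among the 755) and 1 with the length correction. Only the 8 compared libraries were left out in turn, and each such fit leaves a single library in a group. Within Cpa3+/+ the counts were 134, 2, 519 and 732 without a filter, with DESeq2, with 8 libraries and with quality weights, within Cpa3Cre/+ 184, 76 and 9 without a filter, with 8 libraries and with quality weights, and for the difference 69 without a filter and 10 with quality weights. The choice of fit thus decides whether there are calls, and why the fits differ was not tested.

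The 755 calls with 8 libraries became 2235 without a filter, 1262 with DESeq2, 1141 without the sex term, 1474 in females, 57 without the follicle libraries, 285 with the length correction, and 0 to 1476 leaving out a library. Same-numbered libraries of the 2 states did not deviate together (correlation 0.03 in Cpa3+/+ and 0.07 in Cpa3Cre/+), so the numbers do not pair them. With the replicate number as a block there were 0 calls with 23 libraries and 120 with 8.

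Of the named genes, those that turned sign were Kit (−0.36 to 0.12 leaving out a library, with 0.06 without Cpa3Cre/+ immunized replicate 1, 0.12 without Cpa3Cre/+ day 3 replicate 1, and 0.07 and 0.06 with the length correction in the 23- and 8-library fits), Cr2 (0.00 without the follicle libraries) and Ighg1 (−0.65 to 1.99 and −0.45 to 2.15 leaving out a library in the 23- and 8-library fits, the low values without Cpa3+/+ day 3 replicate 1). With 2 libraries per group, the spread is estimated from few libraries. Leaving out a compared library or the follicle libraries leaves a single library in a group. Of 48 list medians in the 23-library fit, 24 turned sign under at least 1 setting. Of these, 2 were beyond 0.2 in size with the designed test, T cell genes (−0.43 to 0.16 without the follicle libraries) and mitochondrial genes (0.22 to −0.03 with the length correction).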
